A study of Mus musculus with 17 samples.

Results

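Imprinted genes other than the Igf2 and H19 pair were followed across mouse embryonic fibroblasts (MEF), extraembryonic endoderm (XEN) cells and induced XEN (iXEN) cells. They were chosen by symbol, from a list of 42 genes known in mouse for expression from the copy of 1 parent, and all 42 were found among the 24015 genes listed. By general knowledge 22 are read from the paternal copy, 19 from the maternal copy and Gnas from either, depending on the transcript. These textbook assignments are often tissue-specific. For Ube3a, Blcap, Commd1 and Kcnq1, among others, they hold in some tissues or stages only. The words paternally and maternally read below stand for them, not for a measurement in these cells. Parental copies were not told apart in these data: each value is the sum over both.

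All cells had the CD-1 background and no group carried a named mutation. The study's title ties iXEN cells to OSKM, the reprogramming factors Pou5f1, Sox2, Klf4 and Myc. There were 4 libraries of iXEN cells in ESC medium and 4 in XEN medium (numbered 1, 2, 6 and 9), 3 of XEN cells in ESC medium and 3 in XEN medium (numbered 1, 2 and 7), and 3 of MEF (numbered 1, 2 and 3). XEN and iXEN cells had 10 passages in ESC medium and then 5 in ESC or XEN medium, whereas MEF, the control, had 3 passages in MEF medium. Cell type, medium and passages therefore cannot be told apart in any comparison with MEF, and the labels do not say whether a number marks a clone or a pool. Values below follow the library numbers in rising order within each group, in CPM, the read counts scaled to a common library size.

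Imprinted genes sit mostly in clusters, in which a differentially methylated control region decides which parental copy is read. Many clusters hold protein-coding genes of 1 parental origin beside a long noncoding RNA of the other. Extraembryonic endoderm lines the yolk sac, and several imprinted genes, such as Sfmbt2, are known for roles in extraembryonic tissues, while others, such as Dlk1, Plagl1 and Grb10, act in growth of the embryo.

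Each library held between 20071567 and 45914262 counts in genes. The 8 extraembryonic endoderm markers summed to between 33000 and 55700 CPM in iXEN libraries in ESC medium, 10800 and 24700 in iXEN libraries in XEN medium, 5050 and 83000 in XEN libraries in ESC medium, and 9360 and 18600 in XEN libraries in XEN medium, against 1050 to 1470 CPM in MEF. The 8 fibroblast markers summed to 2210 CPM in iXEN library 2 and 942 CPM in iXEN library 9 in XEN medium, to 7630 CPM in XEN library 1 and 303 CPM in XEN library 2 in ESC medium, and to between 0.266 and 22.5 CPM in the remaining 10 libraries of XEN and iXEN cells, against 35000 to 49100 CPM in MEF. In XEN library 1 Thy1, a fibroblast surface protein, stood at 76.5% of its MEF mean, Col1a1 at 16.7% and Igf2 at 0.0555%. XEN library 7 had the lowest endoderm marker sum of its group in both media. It had 0.47 and 0.805 CPM of Sox7, an endoderm transcription factor, against 40.7 to 272 CPM in the other 4 XEN libraries. Pecam1, an endothelial surface protein, stood at 91.9 and 179 CPM, against 0 to 0.385 CPM in those 4. Other markers of these lists were mixed. Gata4, Gata6, Dab2 and Lama1 were also lowest in library 7 in both media, and Col4a1 in ESC medium alone. Foxa2 was highest in library 7 in both media (204 and 162 CPM). Sox17 was highest in ESC medium (372 CPM) and lowest in XEN medium (250 CPM). The endothelial markers Cdh5 and Kdr were lowest in ESC medium (100 and 0.6 CPM) and highest in XEN medium (304 and 8.48 CPM). iXEN library 9 in XEN medium had 109 CPM over 4 pluripotent markers, with 58.4 CPM of Pou5f1 and 48.2 CPM of Sox2, while no other library exceeded 27.8 CPM over the 4. Nanog stood there at 1.39 CPM, against 1.29, 1.65 and 1.59 CPM in iXEN libraries 1, 2 and 6 in XEN medium. Zfp42 stood at 1.36 CPM, against 3.38, 8.83 and 7.76 CPM. Pou5f1 and Sox2 are OSKM factors, and the source of their reads was not tested. The part of these marker levels in the results was not tested either. Results that rest on these libraries are given with and without them.

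The Dlk1-Meg3 cluster was far below MEF in nearly all XEN and iXEN libraries. It holds Dlk1, a membrane protein with EGF repeats that restrains adipocyte differentiation, and Dio3, the enzyme that inactivates thyroid hormone, both read from the paternal copy. From the maternal copy come the long noncoding RNAs Meg3, Rian, a host of small nucleolar RNAs, and Mirg, a host of microRNAs. Their start regions are shown because the 4 genes Dlk1, Meg3, Rian and Mirg ranked the libraries alike, as described below. Each window runs from 250 bases before to 50 after the RefSeq start on chromosome 12 of build GRCm38.p6, plus strand, with CG dinucleotides, the sites of methylation, in capitals. The deposited counts were made on another build, so the windows are given for their sequence alone.
Dlk1: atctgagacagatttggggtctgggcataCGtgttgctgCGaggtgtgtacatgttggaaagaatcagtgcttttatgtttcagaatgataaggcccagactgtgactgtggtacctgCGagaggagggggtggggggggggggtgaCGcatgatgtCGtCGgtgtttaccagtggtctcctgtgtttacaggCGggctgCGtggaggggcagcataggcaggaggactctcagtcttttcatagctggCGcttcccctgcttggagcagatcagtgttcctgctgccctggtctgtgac
Meg3: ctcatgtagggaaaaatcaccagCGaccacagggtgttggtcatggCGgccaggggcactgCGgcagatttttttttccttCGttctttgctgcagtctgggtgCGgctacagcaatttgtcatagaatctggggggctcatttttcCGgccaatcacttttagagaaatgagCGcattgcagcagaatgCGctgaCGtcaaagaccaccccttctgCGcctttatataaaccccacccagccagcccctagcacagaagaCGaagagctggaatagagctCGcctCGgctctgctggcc
Rian: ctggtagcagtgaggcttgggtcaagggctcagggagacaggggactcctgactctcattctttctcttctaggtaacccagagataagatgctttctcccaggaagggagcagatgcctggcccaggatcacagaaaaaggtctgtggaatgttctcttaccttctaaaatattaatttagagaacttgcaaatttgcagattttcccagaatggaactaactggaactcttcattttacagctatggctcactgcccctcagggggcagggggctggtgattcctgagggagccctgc
Mirg: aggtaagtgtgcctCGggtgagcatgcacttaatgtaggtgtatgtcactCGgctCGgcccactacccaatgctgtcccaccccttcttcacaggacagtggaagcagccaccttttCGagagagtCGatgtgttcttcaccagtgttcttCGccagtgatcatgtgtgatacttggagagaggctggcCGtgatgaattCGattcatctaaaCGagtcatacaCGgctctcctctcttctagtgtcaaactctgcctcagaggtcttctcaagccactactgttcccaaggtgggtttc
The windows lie at chr12:109452573-109452872 for Dlk1, chr12:109540746-109541045 for the most upstream start of Meg3, chr12:109603695-109603994 for Rian and chr12:109734731-109735030 for Mirg. They hold 9 CG in Dlk1, 13 in Meg3, 0 in Rian and 10 in Mirg, and 45.8%, 37.9%, 100% and 43.5% of all 32851 windows of this length hold at least as many.

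Dlk1 had 0.966, 0.325, 0.184 and 0.392 CPM in iXEN cells kept in ESC medium, and 0, 3.20, 0.0301 and 0.0290 CPM in iXEN cells in XEN medium. XEN cells had 44.1, 0.269 and 0 CPM of Dlk1 in ESC medium and 0.122, 0.0550 and 0 CPM in XEN medium, against 596, 649 and 908 CPM in MEF. All 14 XEN and iXEN libraries thus lay below every MEF library, and XEN library 1 in ESC medium stood far above the other 13. Meg3 had 59.5, 18.4, 0.277 and 25.6 CPM in iXEN cells kept in ESC medium, and 0.0380, 69.7, 0.0902 and 3.74 CPM in XEN medium. In XEN cells Meg3 had 81.4, 1.48 and 0.0261 CPM in ESC medium and 0.0735, 0.523 and 0 CPM in XEN medium, against 990, 689 and 931 CPM in MEF. The groups again did not overlap with MEF, but Meg3 differed widely between libraries of each XEN and iXEN group. In iXEN cells Rian had 58.2, 13, 0.184 and 18.8 CPM in ESC medium and 0, 139, 0 and 1.13 CPM in XEN medium. In XEN cells Rian had 147, 2.60 and 0 CPM in ESC medium and 0.0979, 1.05 and 0 CPM in XEN medium, against 1220, 880 and 844 CPM in MEF. The Rian levels singled out the same libraries as Meg3. Mirg had 1.55, 0.558, 0.0461 and 1.05 CPM in iXEN cells kept in ESC medium, and 0, 4.35, 0 and 0 CPM in XEN medium. Mirg in XEN cells had 14.4, 0 and 0.0261 CPM in ESC medium and 0, 0.0275 and 0 CPM in XEN medium, against 32.2, 25.7 and 21.2 CPM in MEF.

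The order of the 5 highest XEN and iXEN libraries was the same for Dlk1, Meg3, Rian and Mirg, namely XEN library 1 in ESC medium, iXEN library 2 in XEN medium, and iXEN libraries 1, 9 and 2 in ESC medium. These 4 genes share library and depth, so the order is a description of these libraries. Relative to the MEF mean, XEN library 1 in ESC medium held 6.14% of Dlk1, 9.36% of Meg3, 15% of Rian and 54.5% of Mirg, while iXEN library 2 in XEN medium held 0.446%, 8.01%, 14.2% and 16.5%. Fibroblast markers were high in both of these libraries, as given above, whereas iXEN libraries 1, 2 and 9 in ESC medium had Meg3 at 6.84%, 2.11% and 2.95% of the MEF mean with fibroblast marker sums of 19.5, 19.2 and 22.5 CPM. Their part in the cluster's levels was not tested. Dio3 did not follow this order. It had 0.0840, 0.116, 0 and 0.0327 CPM in iXEN cells kept in ESC medium, and 0, 0.172, 0.0602 and 0 CPM in XEN medium. XEN cells had 8.90, 0 and 0 CPM of Dio3 in ESC medium and 0.0245, 0 and 0 CPM in XEN medium, against 1.59, 3.61 and 1.77 CPM in MEF, so XEN library 1 in ESC medium exceeded every MEF library.

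**Figure D1:**
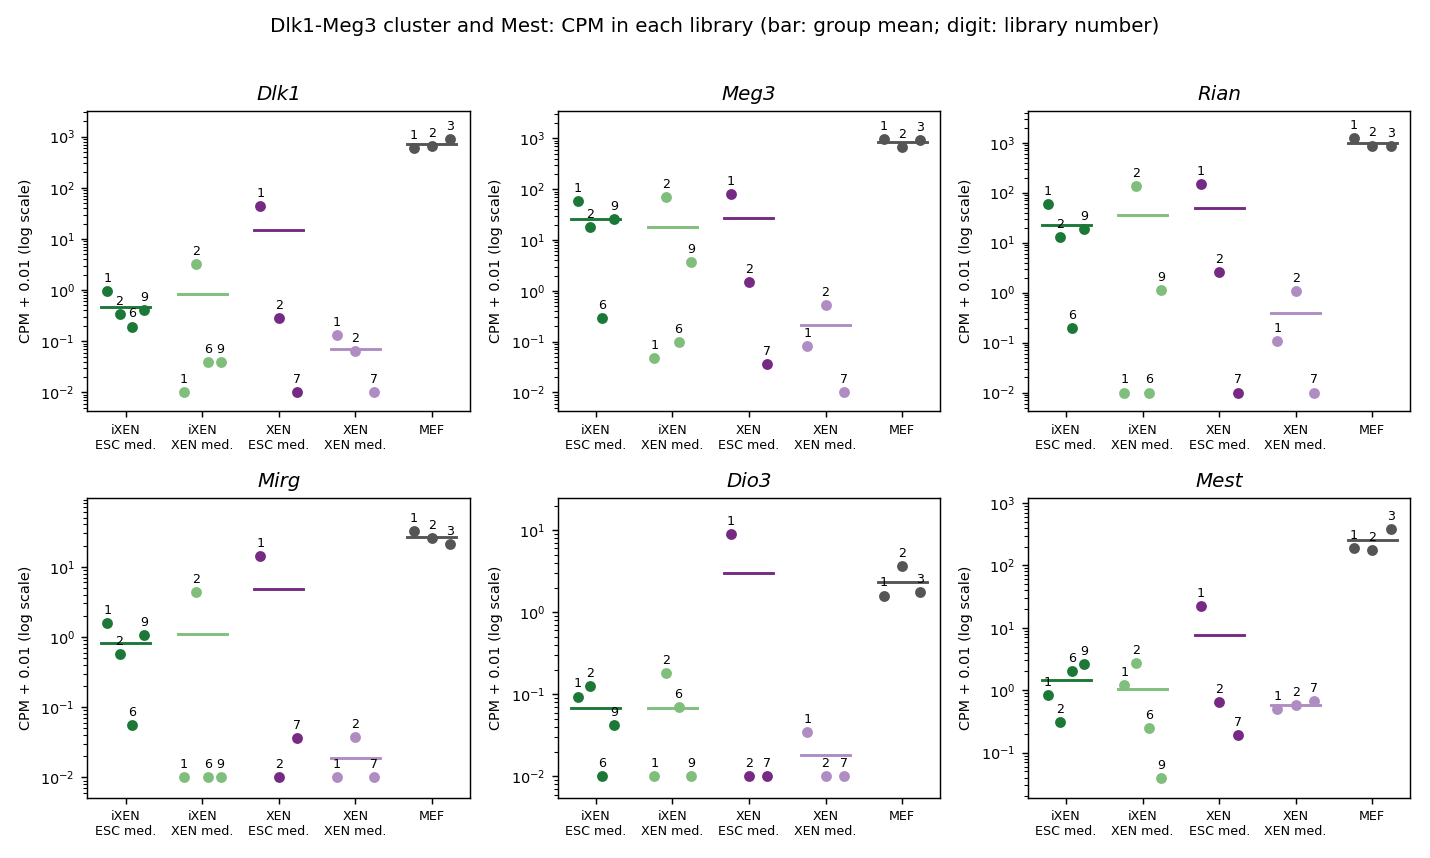
CPM plus 0.01 on a log axis for the 5 genes of the Dlk1-Meg3 cluster and Mest, with 1 point per library, its number above it and the group mean as a bar; points at the lower edge are libraries at 0 CPM. XEN library 1 in ESC medium stands above the other XEN and iXEN libraries for all 6 genes, with Dlk1 at 44.1 CPM and Dio3 at 8.90 CPM.

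Each comparison used edgeR's quasi-likelihood test over all genes, with Benjamini-Hochberg adjustment, and the words rose, fell and called are kept for genes with an adjusted p under 0.05. Log2 fold changes are iXEN or XEN cells over MEF. A lower level in such bulk samples can mean fewer cells of a type or less RNA per cell, which cannot be told apart. In iXEN cells in ESC medium all 5 genes of the Dlk1-Meg3 cluster fell, among 25.9% of all genes tested. Dlk1 fell by 10.56 (SE 0.56, edgeR adjusted p = 3.13e-06), Meg3 by 5.03 (SE 1.16, edgeR adjusted p = 0.00744), Rian by 5.41 (SE 1.23), Mirg by 5.00 (SE 0.74) and Dio3 by 5.07 (SE 0.70). In 1 fit over all 5 groups the Meg3, Rian and Mirg calls were lost (edgeR adjusted p = 0.0952, 0.122 and 0.0959). In XEN cells in XEN medium all 5 fell too, where 24.5% of all genes did. All 5 entered this comparison, and those of iXEN cells in XEN medium and XEN cells in ESC medium, through their MEF counts alone, as did Dlk1 and Dio3 in iXEN cells in ESC medium, so that their count is a description. Meg3 fell by 12.11 (SE 1.35, edgeR adjusted p = 0.00141), Rian fell by 11.32 (SE 1.6) and Dlk1 fell by 13.51 (SE 0.88). Mirg and Dio3 had 1 count each over the 3 XEN libraries, and the pooled count ratio of MEF to XEN cells was 3150 for Mirg (95% counting interval 564 to 124000) and 278 for Dio3 (49.3 to 11000). In iXEN cells in XEN medium, where 14.9% of all genes fell, Dlk1 fell by 9.62 (SE 1.99) and Dio3 fell by 5.06 (SE 1.12), the Dio3 call being lost without MEF library 2 (edgeR adjusted p = 0.0546). Meg3, at -5.43 (SE 2.11, edgeR adjusted p = 0.0826), Rian and Mirg were not called there. Without iXEN library 2 the log2 fold changes of Meg3, Rian and Mirg were -9.23, -11.16 and -12.59, and all 3 were called (edgeR adjusted p = 0.0109, 0.00657 and 0.00118).

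For XEN cells in ESC medium none of the 5 genes was called, while 13.7% of all genes fell. Dlk1 stood at -5.54 (SE 2.37, edgeR adjusted p = 0.129), Meg3 at -4.91 (SE 2.18), Rian at -4.24 (SE 2.28), Mirg at -2.40 (SE 1.97) and Dio3 at 0.41 (SE 2.0). Without XEN library 1 these values were -12.51, -10.18, -9.55, -10.28 and -9.07, and all 5 were called, with edgeR adjusted p = 0.00808 for Dlk1, 0.0176 for Meg3, 0.033 for Rian, 0.00407 for Mirg and 0.0142 for Dio3. The lone change of direction was that of Dio3.

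Over all imprinted genes, falls outnumbered rises in each comparison with MEF. In iXEN cells in ESC medium 36 of the 42 genes passed the filter on low counts, and 4 rose and 16 fell, beside 20.8% and 25.9% of all 14352 genes. The median log2 fold change was -0.71, beside 0.03 over all genes. Of iXEN cells in XEN medium, 35 imprinted genes were tested, and 3 rose and 12 fell, beside 17.7% and 14.9% of 14438 genes (median -0.86 beside 0.06). XEN cells in XEN medium gave 5 rises and 18 falls among 37 tested, beside 23.0% and 24.5% of 14390 genes (median -1.11 beside 0.02). XEN cells in ESC medium gave 0 rises and 5 falls among 35 tested, beside 11.4% and 13.7% of 14001 genes (median -0.97 beside -0.03). With edgeR 13 of these 35 had an unadjusted p under 0.05, as had 5817 of the 14001 genes. DESeq2 called 12, of which 4 rose, and 5480 of all genes. The edgeR count of 5 rests on few libraries: leaving out XEN library 1, 2 or 7 gave 10, 11 or 11 called genes, and leaving out MEF library 1, 2 or 3 gave 1, 2 or 1. Over all genes edgeR called 3507 with all libraries. Without those XEN libraries it called 3779, 6056 or 4834, and without those MEF libraries 372, 692 or 562. Without library 7, 23 imprinted genes were again called in XEN cells in XEN medium, 22 of them shared, and for iXEN cells in XEN medium 16 without library 9, of which 14 were among the 15. These settings called 8965 and 4849 of all genes. The filter was passed through MEF alone by 4, 11, 10 and 12 of the tested genes, in the order of comparisons given here. Such entry favours levels below MEF, and 4, 6, 9 and 1 of these genes fell. Both groups passed it for 31, 24, 25 and 23 genes, of which 12, 6, 9 and 4 fell and 3, 3, 4 and 0 rose. The counts and medians are therefore a description.

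By parental origin, 4 of 20 tested paternally read genes rose and 6 fell in iXEN cells in ESC medium, and of 15 maternally read genes 0 rose and 9 fell. In XEN medium iXEN cells had 3 rises and 8 falls among 19 paternally read genes and 0 rises and 4 falls among 15 maternally read genes. XEN cells in XEN medium had 3 rises and 9 falls among 20 paternally read genes, and 2 rises and 8 falls among 16 maternally read genes. In ESC medium XEN cells had 0 rises and 2 falls among 19 paternally read genes and likewise 0 rises and 2 falls among 15 maternally read genes. Of all genes tested 20.8%, 17.7%, 23.0% and 11.4% rose and 25.9%, 14.9%, 24.5% and 13.7% fell, in the same order. Both origins include genes that passed the filter through MEF alone. In all 4 comparisons these held Dlk1 and Dio3, paternally read, and Slc22a18 and Asb4, maternally read. The counts are a description, and the difference between the origins was not tested.

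**Figure D2:**
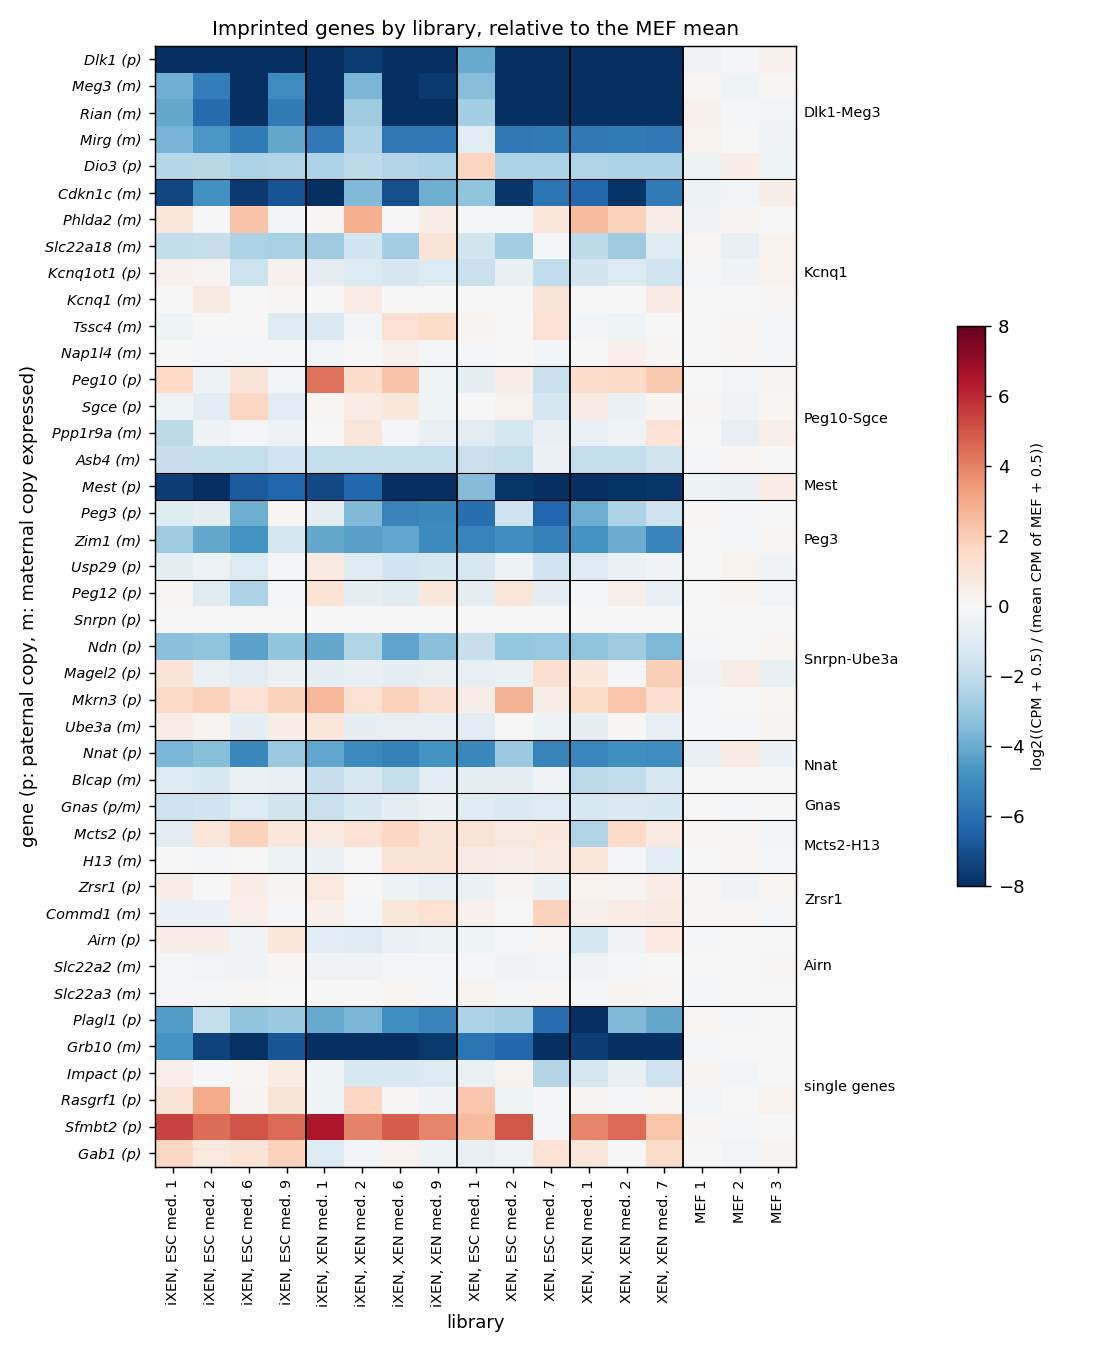
Log2 of CPM plus 0.5 over the MEF mean plus 0.5 for the 42 genes (rows, by cluster) in the 17 libraries (columns, by group), with blue below and red above the MEF mean. Dlk1, Mest and Grb10 are blue in all 14 XEN and iXEN libraries, Sfmbt2 is red in 13 of them, and Snrpn, at 0 CPM in every library, cannot show a difference.

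Zim1, Ndn, Plagl1 and Grb10 were the 4 genes that fell in all 4 comparisons with MEF, and none rose in all 4. How many of all genes fell in all 4 was not computed, so this count is a description. Zim1 entered both comparisons of XEN cells, and Grb10 that of iXEN cells in XEN medium, through MEF counts alone. Grb10, an adaptor that dampens insulin and insulin-like growth factor receptor signalling, had 61.8, 9.57, 6.6 and 14.4 CPM in iXEN cells kept in ESC medium, and 0.114, 4.21, 0.211 and 7.76 CPM in XEN medium. In XEN cells Grb10 had 29.6, 21.6 and 2.11 CPM in ESC medium and 8.81, 3.96 and 1.88 CPM in XEN medium, against 1620, 1730 and 1780 CPM in MEF. No XEN or iXEN library came near the MEF libraries, and the 2 lowest were iXEN libraries 1 and 6 in XEN medium. Grb10 fell by 6.17 (SE 0.83, edgeR adjusted p = 0.000462) in iXEN cells in ESC medium and fell by 8.97 (SE 1.58, adjusted p = 0.00676) in XEN medium. In XEN cells it fell by 6.53 (SE 1.04, edgeR adjusted p = 0.0105) in ESC medium and fell by 8.40 (SE 0.72, adjusted p = 0.000616) in XEN medium. The Grb10 call in XEN cells in ESC medium was lost without MEF library 1 or 3 (edgeR adjusted p = 0.0536 and 0.0501). Its most upstream start, at chr11:12037371-12037670 on the minus strand of GRCm38.p6, is shown because it holds 45 CG, a number that 1.93% of all windows reach, and the most among the 36 imprinted genes with a window.
Grb10: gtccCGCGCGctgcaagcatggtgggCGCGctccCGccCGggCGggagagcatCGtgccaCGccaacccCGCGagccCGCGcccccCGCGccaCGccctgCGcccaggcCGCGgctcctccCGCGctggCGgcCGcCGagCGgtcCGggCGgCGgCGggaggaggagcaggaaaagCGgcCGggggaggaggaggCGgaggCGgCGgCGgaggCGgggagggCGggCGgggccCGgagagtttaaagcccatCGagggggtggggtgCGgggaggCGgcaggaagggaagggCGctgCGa
The letters TGCCGC, the core of the binding motif known for the imprint-keeping zinc finger protein Zfp57, occur on either strand in 8 of the 36 windows (22.2%) and in 11.6% of all windows; Grb10 and Meg3 are among the 8, which is a description of letters in these windows. The median window of the 36 genes holds 13 CG, from 0 to 45, beside a median of 7 over all windows.

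Plagl1, a zinc finger transcription factor that limits proliferation, had 25, 151, 60.7 and 71.3 CPM in iXEN cells kept in ESC medium, and 34.0, 43.7, 18.2 and 13.8 CPM in XEN medium. XEN cells had 99.0, 89.5 and 7.85 CPM of Plagl1 in ESC medium and 0.343, 47.0 and 32.5 CPM in XEN medium, against 622, 499 and 555 CPM in MEF. The 2 XEN groups were wide, with library 1 in XEN medium the lowest of all, and none overlapped with MEF. Plagl1 fell by 2.83 (SE 0.50) in iXEN cells in ESC medium and fell by 4.27 (SE 0.45) in XEN medium. In XEN cells it fell by 3.04 (SE 0.86, edgeR adjusted p = 0.0469) in ESC medium and fell by 4.335 (SE 1.41, adjusted p = 0.0449) in XEN medium. Each of these 2 calls in XEN cells was lost in 6 of 11 alternative settings, among them leaving out any MEF library (edgeR adjusted p from 0.0915 to 0.141), XEN library 1 or 2 in ESC medium (0.068 and 0.0717) and XEN library 2 or 7 in XEN medium (0.0766 and 0.0578).

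Ndn (necdin), a growth suppressor of the MAGE family, had 11.4, 12.4, 5.58 and 12.7 CPM in iXEN cells kept in ESC medium, and 6.53, 21.9, 5.81 and 11.4 CPM in XEN medium. Ndn in XEN cells had 33.2, 13.6 and 14.2 CPM in ESC medium and 12.2, 15.9 and 9.41 CPM in XEN medium, against 109, 114 and 133 CPM in MEF. The highest levels outside MEF were again in XEN library 1 in ESC medium and iXEN library 2 in XEN medium. Ndn fell by 3.46 (SE 0.29) and 3.27 (SE 0.51) in iXEN cells and by 2.48 (SE 0.41) and 3.20 (SE 0.25) in XEN cells, in ESC and XEN medium in that order. The Ndn call in XEN cells in ESC medium was lost without MEF library 1, 2 or 3 (edgeR adjusted p = 0.0633, 0.0527 and 0.0576).

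Within the Peg3 cluster, Zim1, a maternally read zinc finger gene, had 2.77, 0.883, 0.369 and 8.33 CPM in iXEN cells kept in ESC medium, and 0.911, 0.664, 0.812 and 0.203 CPM in XEN medium. XEN cells had 0.0918, 0.269 and 0.0522 CPM of Zim1 in ESC medium and 0.343, 0.990 and 0.0982 CPM in XEN medium, against 23.0, 21.3 and 25.1 CPM in MEF. Its log2 fold changes were -2.87 (SE 0.86, edgeR adjusted p = 0.0243) in ESC medium and -5.09 (SE 0.53) in XEN medium in iXEN cells, and -7.36 (SE 0.68) and -5.56 (SE 0.84) in XEN cells. The Zim1 call in iXEN cells in ESC medium was lost in 4 of 12 alternative settings, namely without iXEN library 1 (edgeR adjusted p = 0.0604) or MEF library 1, 2 or 3 (0.054, 0.0536 and 0.0648). Its neighbour Peg3, a paternally read zinc finger gene, had 200, 222, 25 and 421 CPM in iXEN cells kept in ESC medium, and 226, 33.0, 9.20 and 10.2 CPM in XEN medium. In XEN cells Peg3 had 5.41, 121 and 4.20 CPM in ESC medium and 25.9, 69.3 and 118 CPM in XEN medium, against 419, 360 and 386 CPM in MEF. Peg3 overlapped with MEF in iXEN cells in ESC medium, through library 9, and differed many fold between libraries of every XEN and iXEN group. Its single call was a fall by 2.40 (SE 0.53, edgeR adjusted p = 0.0128) in XEN cells in XEN medium, lost in 1 fit over all 5 groups (adjusted p = 0.187). Usp29, a ubiquitin protease gene read from the paternal copy, ranged from 0.0783 to 2.24 CPM outside MEF, against 0.913 to 1.54 CPM in MEF, and was called in none of the 4 comparisons.

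**Figure D3:**
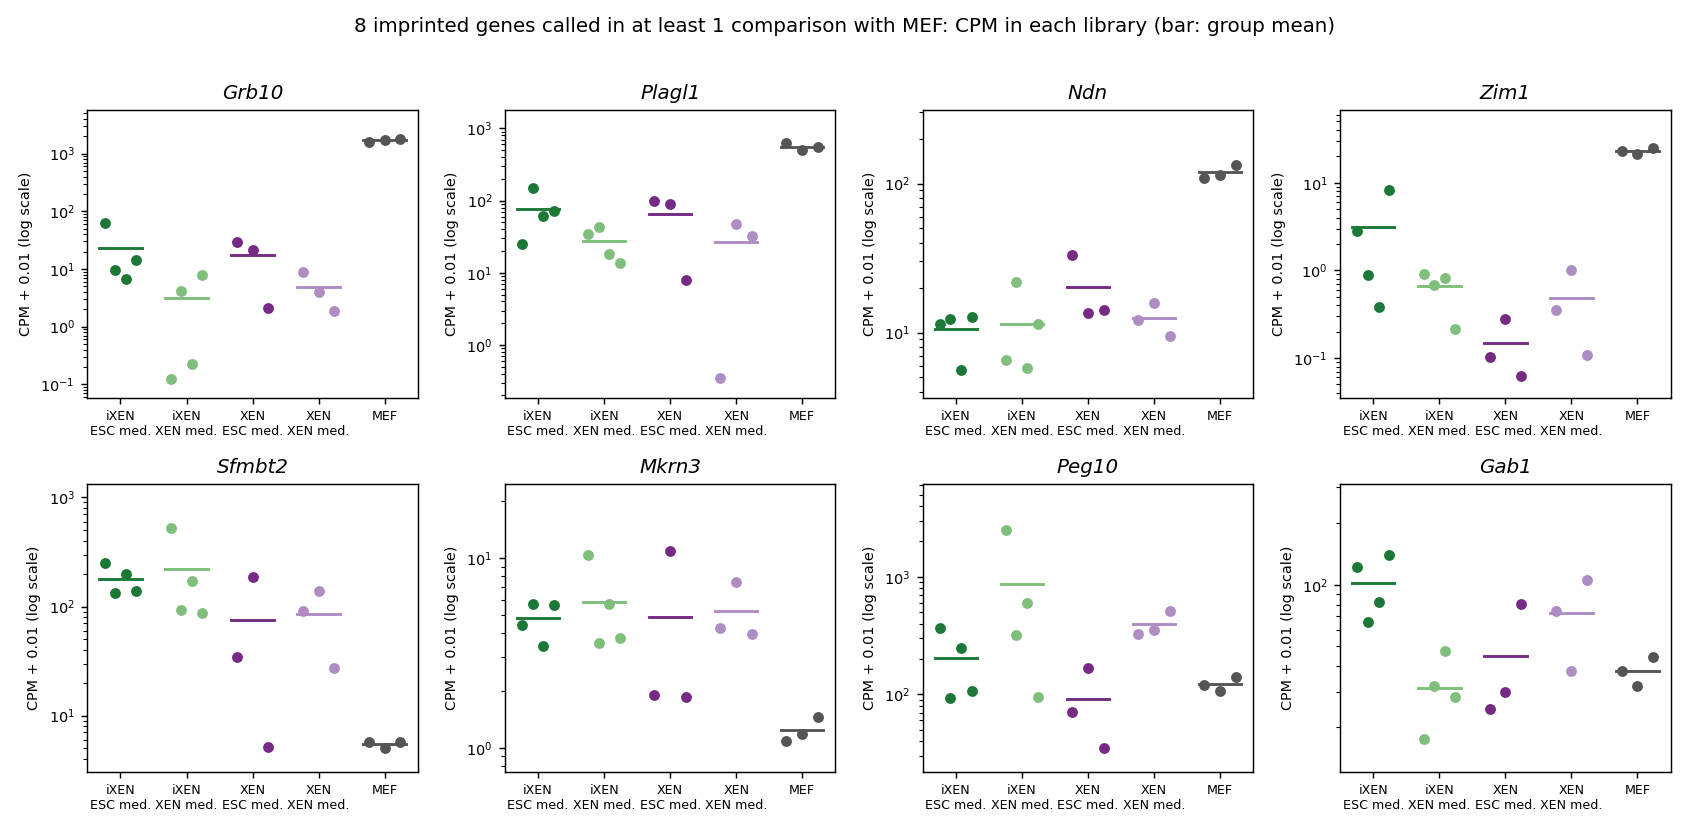
CPM plus 0.01 on a log axis for 8 imprinted genes, with 1 point per library and the group mean as a bar. Grb10, Plagl1, Ndn and Zim1 lie below MEF in every XEN and iXEN library; Sfmbt2 and Mkrn3 lie above MEF except for Sfmbt2 in XEN library 7 in ESC medium, at 5.09 CPM.

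Mest, a paternally read member of the alpha/beta hydrolase family, had 0.840, 0.302, 2.03 and 2.58 CPM in iXEN cells kept in ESC medium, and 1.22, 2.71, 0.241 and 0.0290 CPM in XEN medium. XEN cells had 22.0, 0.627 and 0.183 CPM of Mest in ESC medium and 0.490, 0.578 and 0.668 CPM in XEN medium, against 193, 178 and 385 CPM in MEF. As with Dlk1, XEN library 1 in ESC medium was the highest library outside MEF. Mest passed the filter through MEF alone for iXEN cells in XEN medium and XEN cells in ESC medium. Mest fell by 7.44 (SE 0.74) in iXEN cells in ESC medium, by 7.81 (SE 1.27) in iXEN cells in XEN medium and fell by 8.70 (SE 0.46) in XEN cells in XEN medium. For XEN cells in ESC medium, the log2 fold change of Mest was -5.00 (SE 1.75, edgeR adjusted p = 0.0802), and without library 1 it was -9.27 (adjusted p = 0.00554).

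Nnat, which encodes neuronatin, a small membrane proteolipid, and Blcap, its host gene, are neighbours read from opposite copies. Nnat had 1.18, 1.53, 0.0922 and 2.19 CPM in iXEN cells kept in ESC medium, and 0.684, 0.123, 0 and 0.261 CPM in XEN medium. In XEN cells Nnat had 0.0918, 2.19 and 0.0261 CPM in ESC medium and 0.0735, 0.220 and 0.177 CPM in XEN medium, against 13.4, 33.8 and 15.2 CPM in MEF. All libraries of XEN and iXEN cells lay below MEF. Nnat entered every comparison with MEF but that of iXEN cells in ESC medium through its MEF counts alone. Nnat fell by 4.01 (SE 0.76) in iXEN cells in ESC medium, fell by 6.25 (SE 1.15) in iXEN cells in XEN medium and fell by 6.98 (SE 0.67) in XEN cells in XEN medium. Blcap had 26.2, 23.7, 38.3 and 35.4 CPM in iXEN cells kept in ESC medium, and 15, 23.1, 14.7 and 29.0 CPM in XEN medium. XEN cells had 32.6, 33.8 and 46.5 CPM of Blcap in ESC medium and 12.4, 14.0 and 23.1 CPM in XEN medium, against 56.5, 55.0 and 56.2 CPM in MEF. Blcap was lower than MEF in every library, with falls of 0.82 (SE 0.21) and 1.35 (SE 0.32) in iXEN cells in ESC and XEN medium and of 1.71 (SE 0.27) in XEN cells in XEN medium. In 1 fit over all 5 groups the first of these was lost (edgeR adjusted p = 0.0577). The Blcap call in iXEN cells in XEN medium was lost without MEF library 1, 2 or 3 (edgeR adjusted p = 0.0735, 0.0622 and 0.0712). For XEN cells in ESC medium, Nnat stood at -4.73 (SE 1.51, edgeR adjusted p = 0.0638) and was called by edgeR without library 2 and also without library 7. Nnat lies within Blcap, and with no strand setting stated for the counts, reads of overlapping genes such as these cannot be told apart.

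Gnas, which encodes the stimulatory G protein alpha subunit among several transcripts counted together, had 397, 420, 590 and 451 CPM in iXEN cells kept in ESC medium, and 355, 536, 716 and 890 CPM in XEN medium. Gnas in XEN cells had 634, 540 and 606 CPM in ESC medium and 503, 562 and 535 CPM in XEN medium, against 1270, 1130 and 1280 CPM in MEF. No group overlapped with MEF. Gnas fell by 1.37 (SE 0.21) in iXEN cells in ESC medium and by 1.15 (SE 0.18) in XEN cells in XEN medium. In XEN cells in ESC medium it fell by 0.99 (SE 0.27, edgeR adjusted p = 0.0441), a call lost in 8 of 11 alternative settings, among them leaving out XEN library 1 or 2 (edgeR adjusted p = 0.069 and 0.0692) or any MEF library (0.132 to 0.204). In iXEN cells in XEN medium Gnas stood at -0.88 (SE 0.37, edgeR adjusted p = 0.104), and without library 9 at -1.13 (adjusted p = 0.0472).

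In the Kcnq1 cluster, Cdkn1c, Kcnq1ot1 and Slc22a18 fell and Phlda2 rose in at least 1 comparison with MEF. Cdkn1c (p57), an inhibitor of cyclin-dependent kinases, had 0.504, 5.04, 0.277 and 0.784 CPM in iXEN cells kept in ESC medium, and 0, 13.3, 0.692 and 9.79 CPM in XEN medium. XEN cells had 16.2, 0.224 and 2.27 CPM of Cdkn1c in ESC medium and 1.54, 0.193 and 2.79 CPM in XEN medium, against 120, 133 and 215 CPM in MEF. The 3 highest libraries outside MEF were those with the highest fibroblast marker sums: XEN library 1 in ESC medium and iXEN libraries 2 and 9 in XEN medium. The part of those markers was not tested. Cdkn1c fell by 6.47 (SE 0.94) in iXEN cells in ESC medium and fell by 6.63 (SE 0.95) in XEN cells in XEN medium. It entered both comparisons of XEN cells with MEF through its MEF counts alone. It stood at -4.57 (SE 1.49, edgeR adjusted p = 0.0501) in iXEN cells in XEN medium, where without libraries 2 and 9 it was -8.66 (adjusted p = 0.00195). For XEN cells in ESC medium, Cdkn1c stood at -4.59 (SE 1.36, edgeR adjusted p = 0.0523), and without library 1 at -6.84 (adjusted p = 0.0163).

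Kcnq1ot1, the paternally read noncoding RNA that silences this cluster in cis, had 64.0, 57.5, 15 and 63.5 CPM in iXEN cells kept in ESC medium, and 29.0, 22.8, 19.5 and 23.1 CPM in XEN medium. XEN cells had 14.4, 32.8 and 12.4 CPM of Kcnq1ot1 in ESC medium and 17, 23 and 16 CPM in XEN medium, against 46.7, 41.2 and 61.3 CPM in MEF. iXEN cells in ESC medium thus overlapped with MEF, whereas the other 3 groups did not. Kcnq1ot1 fell by 0.999 (SE 0.24, edgeR adjusted p = 0.0183) in iXEN cells and by 1.36 (SE 0.24, adjusted p = 0.00552) in XEN cells in XEN medium. The first call was lost without MEF library 1 or 3 (edgeR adjusted p = 0.071 and 0.0972). It is antisense to Kcnq1, and the strand of its reads is not known here. Slc22a18, which encodes a transporter-like membrane protein, had 0.420, 0.511, 0.138 and 0.0980 CPM in iXEN cells kept in ESC medium, and 0, 0.738, 0.0602 and 7.36 CPM in XEN medium. In XEN cells Slc22a18 had 0.826, 0.0448 and 2.82 CPM in ESC medium and 0.343, 0 and 1.34 CPM in XEN medium, against 3.60, 1.96 and 3.92 CPM in MEF. Its single call was a fall by 3.36 (SE 0.61) in iXEN cells in ESC medium, lost in 1 fit over all 5 groups (edgeR adjusted p = 0.145). Slc22a18 passed the filter through MEF alone in every comparison with MEF. In XEN cells in XEN medium Slc22a18 was called without library 7 (-4.09, edgeR adjusted p = 0.0191) and not with it (-2.42, adjusted p = 0.16). Phlda2, known in mouse for limiting growth of the placenta, had 0.630, 0.139, 2.44 and 0.0327 CPM in iXEN cells kept in ESC medium, and 0.152, 3.96, 0.120 and 0.347 CPM in XEN medium. XEN cells had 0.0459, 0.0448 and 0.626 CPM of Phlda2 in ESC medium and 2.99, 1.71 and 0.393 CPM in XEN medium, against 0, 0.226 and 0.118 CPM in MEF. It was tested in XEN cells in XEN medium alone of the 4 comparisons with MEF, having passed the filter through those cells, and rose by 3.87 (SE 1.16, edgeR adjusted p = 0.0340), a call lost in 7 of 11 alternative settings, among them leaving out XEN library 1 or 2 (0.0677 and 0.0639) or MEF library 1, 2 or 3 (0.0784, 0.0706 and 0.125). Tssc4 and the histone chaperone gene Nap1l4, at 18.4 to 112 and 108 to 172 CPM over all libraries, were called in no comparison.

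Among genes with rises, Sfmbt2, a Polycomb-associated repressor needed in mouse for the extraembryonic lineages of the placenta, had the largest fold change in each of the 3 comparisons with MEF that called any rise. It had 251, 134, 198 and 139 CPM in iXEN cells kept in ESC medium, and 525, 92.8, 170 and 87.6 CPM in XEN medium. XEN cells had 34.5, 187 and 5.09 CPM of Sfmbt2 in ESC medium and 90.1, 138 and 27.5 CPM in XEN medium, against 5.77, 5.00 and 5.68 CPM in MEF. All 8 iXEN libraries and 5 of the 6 XEN libraries exceeded MEF, and library 7, in which Sox7 was near 0, was the lowest XEN library in both media. Sfmbt2 rose by 5.08 (SE 0.32, edgeR adjusted p = 7.75e-06) and 5.35 (SE 0.76, adjusted p = 0.00367) in iXEN cells in ESC and XEN medium and by 4.01 (SE 0.60, adjusted p = 0.00337) in XEN cells in XEN medium. For XEN cells in ESC medium, it stood at 3.83 (SE 1.19, edgeR adjusted p = 0.0598), and at 4.42 without library 7 (adjusted p = 0.00749).

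Mkrn3, which encodes a RING-finger ubiquitin ligase and is read from the paternal copy of the Snrpn-Ube3a cluster, had 4.45, 5.74, 3.41 and 5.62 CPM in iXEN cells kept in ESC medium, and 10.3, 3.54, 5.72 and 3.79 CPM in XEN medium. Mkrn3 in XEN cells had 1.88, 10.9 and 1.85 CPM in ESC medium and 4.26, 7.45 and 3.97 CPM in XEN medium, against 1.08, 1.17 and 1.44 CPM in MEF. No group overlapped with MEF. Mkrn3 rose by 1.99 (SE 0.35) and 2.29 (SE 0.51) in iXEN cells in ESC and XEN medium and by 2.13 (SE 0.41) in XEN cells in XEN medium, and stood at 2.03 (SE 0.82, edgeR adjusted p = 0.111) in XEN cells in ESC medium. The Mkrn3 call in iXEN cells in XEN medium was lost without MEF library 1, 2 or 3 (edgeR adjusted p = 0.0839, 0.0734 and 0.068), and that in XEN cells in XEN medium without MEF library 1 (0.0502). In those 3 comparisons it moved opposite to Ndn, which lies in the same cluster and is read from the same copy. The other paternally read genes of the cluster were not called: Peg12, of the Frat family of Gsk3-binding proteins, ranged from 1.43 to 21.8 CPM outside MEF, against 8.57 to 11.6 CPM in MEF, and Magel2, of the MAGE family, reached at most 3.06 CPM. Ube3a, a ubiquitin ligase gene read from the maternal copy in neurons, ranged from 20.0 to 68.6 CPM outside MEF, against 34.7 to 45.1 CPM in MEF, and was not called either. Snrpn was listed at 0 counts in every library, and so was Snurf, with which it shares a transcript. Whether reads of these overlapping genes were set aside in counting was not tested, so the 0 cannot be taken as absent expression.

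In the Peg10-Sgce cluster, Peg10, a retrotransposon-derived gene needed in mouse for the placenta, had 364, 92.3, 247 and 106 CPM in iXEN cells kept in ESC medium, and 2480, 321, 593 and 95.9 CPM in XEN medium. XEN cells had 71.4, 166 and 35.3 CPM of Peg10 in ESC medium and 325, 352 and 513 CPM in XEN medium, against 120, 106 and 141 CPM in MEF. XEN cells in XEN medium lay wholly above MEF, and the other 3 groups overlapped with it. Peg10 rose by 1.75 (SE 0.24, edgeR adjusted p = 0.00265) in XEN cells in XEN medium, a call lost in 1 fit over all 5 groups (adjusted p = 0.137), and stood at 2.85 (SE 0.998, adjusted p = 0.0624) in iXEN cells in XEN medium. Without iXEN libraries 2 and 9 the second value was 3.66 (edgeR adjusted p = 0.00314). Asb4, an ankyrin-repeat ubiquitin ligase adaptor read from the maternal copy, had 0.0420, 0, 0 and 0.131 CPM in iXEN cells kept in ESC medium, and 0 CPM in all 4 iXEN libraries in XEN medium. XEN cells had 0.0459, 0 and 0.887 CPM of Asb4 in ESC medium and 0, 0 and 0.196 CPM in XEN medium, against 1.28, 1.62 and 1.33 CPM in MEF. With 0 counts, Asb4 was at least 63.5-fold lower in iXEN cells in XEN medium than in MEF, taking a floor of 3 counts over the group, which covers counting error alone. Asb4 entered every comparison with MEF through its MEF counts alone. It fell by 4.88 (SE 0.83) in iXEN cells in ESC medium and by 4.20 (SE 1.22, edgeR adjusted p = 0.0308) in XEN cells in XEN medium, a call lost without XEN library 2 (adjusted p = 0.056) or MEF library 1, 2 or 3 (0.0876, 0.0915 and 0.0902). Sgce, the epsilon-sarcoglycan gene that shares its start region with Peg10, ranged from 22.2 to 189 CPM outside MEF, against 48.9 to 69.2 CPM in MEF, and Ppp1r9a, the gene of the actin-binding neurabin, from 0.924 to 12.7 CPM, against 3.57 to 7.57 CPM in MEF. Neither was called with all libraries.

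Gab1 and Rasgrf1 each had 1 call against MEF, a rise in iXEN cells in ESC medium. Gab1, a docking protein of receptor tyrosine kinases, had 122, 65.6, 82.2 and 140 CPM in iXEN cells kept in ESC medium, and 17.5, 31.9, 47.2 and 28.2 CPM in XEN medium. XEN cells had 24.6, 29.7 and 80.6 CPM of Gab1 in ESC medium and 74.3, 38.0 and 105 CPM in XEN medium, against 37.6, 31.9 and 44.3 CPM in MEF. Gab1 rose by 1.47 (SE 0.29, edgeR adjusted p = 0.00383) in iXEN cells in ESC medium, whose 4 libraries all exceeded MEF. Rasgrf1, a Ras exchange factor, had 0.882, 4.44, 0.231 and 0.784 CPM in iXEN cells kept in ESC medium, and 0, 1.48, 0.180 and 0.0290 CPM in XEN medium. In XEN cells Rasgrf1 had 2.39, 0 and 0.0783 CPM in ESC medium and 0.245, 0.0825 and 0.216 CPM in XEN medium, against 0.0387, 0.113 and 0.265 CPM in MEF. It rose by 3.46 (SE 1.10, edgeR adjusted p = 0.0311) in iXEN cells in ESC medium, although the groups overlapped, having passed the filter through iXEN cells, and the call was lost in 4 of 9 alternative settings, among them leaving out MEF library 1, 2 or 3 (adjusted p = 0.104, 0.101 and 0.053). Set directly against each other, the groups gave no call for Rasgrf1: the log2 fold change was 0.90 for iXEN over XEN cells in ESC medium (edgeR adjusted p = 0.775) and -1.85 for XEN medium over ESC medium in iXEN cells (adjusted p = 0.437).

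Impact, which regulates translation under amino acid shortage, had 205, 150, 164 and 232 CPM in iXEN cells kept in ESC medium, and 122, 63.8, 66.3 and 71.6 CPM in XEN medium. XEN cells had 105, 185 and 29.5 CPM of Impact in ESC medium and 57.3, 99.9 and 49.0 CPM in XEN medium, against 177, 132 and 152 CPM in MEF. Both groups in XEN medium lay below MEF, with falls of 0.86 (SE 0.26, edgeR adjusted p = 0.0407) in iXEN cells and 1.11 (SE 0.30, adjusted p = 0.0262) in XEN cells. The first of these calls was lost in 10 of 13 alternative settings, among them leaving out iXEN library 2, 6 or 9 (edgeR adjusted p = 0.0698, 0.0961 and 0.0687) or any MEF library (0.0883 to 0.156). The second was lost in 6 of 11, among them leaving out XEN library 1 (0.0693) or any MEF library (0.0538 to 0.0855). Mcts2, a retrogene in an intron of H13 whose reads can be confused with those of its source gene, had 4.66, 17.9, 33.0 and 16.3 CPM in iXEN cells kept in ESC medium, and 14.4, 19.2, 28.2 and 18.1 CPM in XEN medium. In XEN cells Mcts2 had 18.4, 15 and 16.1 CPM in ESC medium and 1.27, 26.2 and 14.7 CPM in XEN medium, against 9.25, 9.41 and 7.57 CPM in MEF. It rose by 1.28 (SE 0.34, edgeR adjusted p = 0.0265) in iXEN cells in XEN medium, a call lost without iXEN library 6 (adjusted p = 0.0558) or MEF library 1, 2 or 3 (0.1, 0.0846 and 0.115). H13, the signal peptide peptidase gene, ranged from 58.4 to 242 CPM outside MEF, against 103 to 122 CPM in MEF, and was not called.

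Commd1, a copper metabolism gene that hosts the retrogene Zrsr1, had 28.3, 28.4, 51.1 and 35.5 CPM in iXEN cells kept in ESC medium, and 52.4, 34.5, 69.2 and 92.1 CPM in XEN medium. XEN cells had 48.7, 38.9 and 142 CPM of Commd1 in ESC medium and 51.3, 58.5 and 64.9 CPM in XEN medium, against 40.7, 41.3 and 34.4 CPM in MEF. It rose by 0.64 (SE 0.17, edgeR adjusted p = 0.0241) in XEN cells in XEN medium, a call lost in 5 of 11 alternative settings, among them leaving out MEF library 1, 2 or 3 (edgeR adjusted p = 0.0832, 0.0587 and 0.0935). Zrsr1, related to a splicing factor subunit, ranged from 13.1 to 37.3 CPM outside MEF, against 16.9 to 23.6 CPM in MEF. Airn, the noncoding RNA that silences Igf2r in cis and overlaps it, ranged from 2.38 to 13.1 CPM outside MEF, against 6.62 to 7.26 CPM in MEF. Neither was called. In each of the 8 comparisons of 2 groups 4 genes were under the filter: Kcnq1, a potassium channel gene, with at most 22 counts in a library, the organic cation transporter genes Slc22a2 and Slc22a3, with at most 6 and 4 counts, and Snrpn with 0.

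Several genes without a call against MEF were called once 1 library was left out. Calls over all genes also changed in these settings. For XEN cells in ESC medium they went from 3507 to 6056 without library 2 and to 4834 without library 7. For iXEN cells in XEN medium they went from 4708 to 5663, 5487 and 4849 without library 1, 2 and 9. iXEN cells in ESC medium had 6704, and 6333 and 8081 without library 1 and 6. XEN cells in XEN medium had 6830, and 6746 and 6161 without library 1 and 2. In XEN cells in ESC medium, leaving out library 2 gave calls for Peg3 (-6.12, edgeR adjusted p = 0.00357), Usp29 (-3.01, 0.0215), Kcnq1ot1 (-1.68, 0.0114), Cdkn1c (-3.85, 0.0307), Mcts2 (1.19, 0.0224), H13 (0.92, 0.018) and Commd1 (1.495, 0.0467). Leaving out library 7 there gave calls for Asb4 (-5.55, edgeR adjusted p = 0.00847), Mkrn3 (2.46, 0.044), Mcts2 (1.09, 0.0344) and H13 (0.75, 0.0418). Without iXEN library 1 in XEN medium Peg3 (-4.35, edgeR adjusted p = 0.00494), Usp29 (-2.40, 0.0291) and Cdkn1c (-4.15, 0.0218) were called, without library 2 Commd1 (0.97, 0.0445), and without library 9 Peg10 (3.23, 0.0229). For iXEN cells in ESC medium Mcts2 was called without library 1 (1.40, edgeR adjusted p = 0.0137), and without library 6 Airn (0.68, 0.0321) and Sgce (-0.62, 0.041), which stood at 0.37 with it. Ube3a (-0.65, edgeR adjusted p = 0.0473) and Gab1 (1.303, 0.0112) were called in XEN cells in XEN medium without library 2, and Mcts2 without library 1 (1.29, 0.0261).

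**Figure D4:**
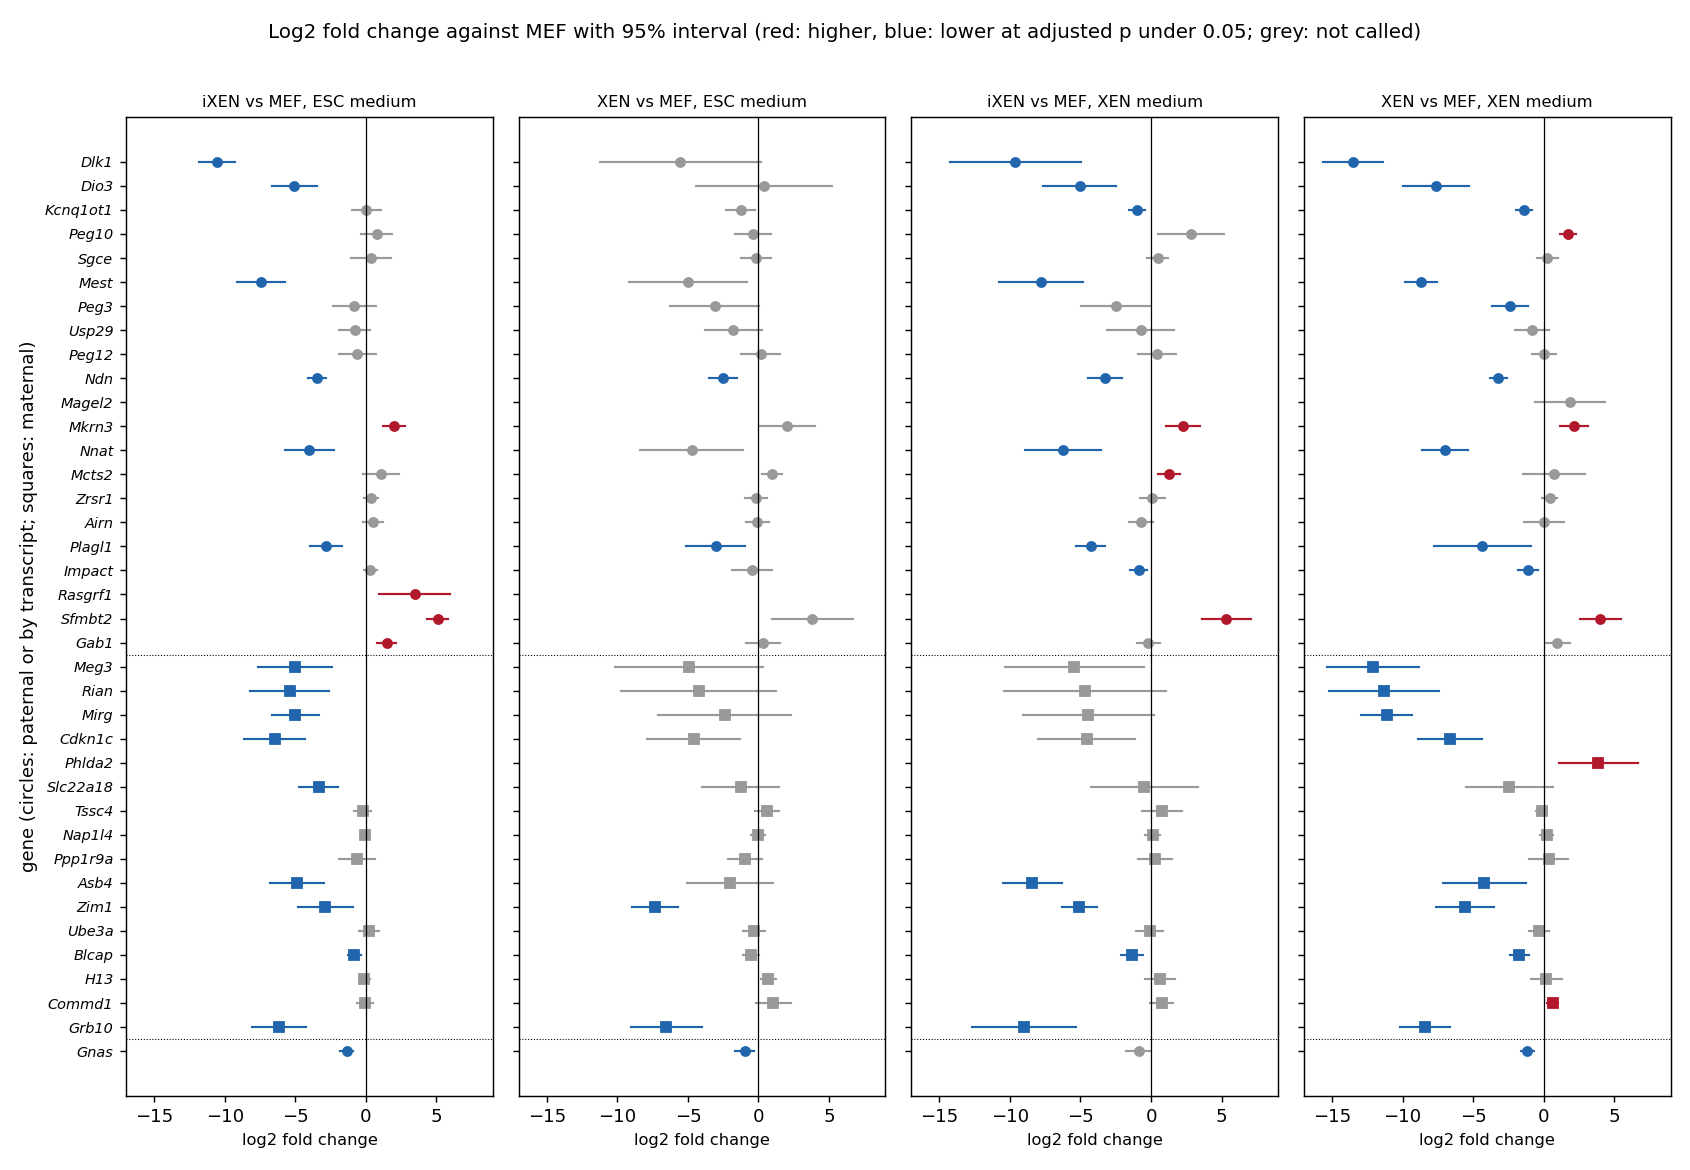
Log2 fold change against MEF with its 95% interval for the 38 imprinted genes tested at least once, paternally read genes above and maternally read genes below the upper dotted line, in the 4 comparisons. In XEN cells in ESC medium the intervals of Dlk1, Meg3, Rian and Mirg extend above 0, to 0.17, 0.35, 1.26 and 2.34.

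The direct comparison of iXEN with XEN cells called none of 34 imprinted genes in ESC medium and none of 32 in XEN medium, and edgeR called 0% of all 12944 and 13263 genes. At an unadjusted p under 0.05 there were 5 and 3 imprinted genes, beside 1770 and 544 of all genes. DESeq2 called 2 and 0 imprinted genes, beside 393 and 75 of all genes. The 2 that DESeq2 called, in ESC medium, were Zim1 and H13. Zim1 averaged 3.09 CPM in iXEN cells and 0.138 CPM in XEN cells (log2 fold change 4.47, 95% interval 1.51 to 7.42, edgeR adjusted p = 0.323), and H13 averaged 100 CPM in iXEN cells and 175 CPM in XEN cells (-0.84, -1.36 to -0.32, adjusted p = 0.316). In both genes the 2 groups did not overlap. In XEN medium Magel2 had 12 counts over the iXEN libraries and 216 over the XEN libraries without overlap, a log2 fold change of -4.10 (95% interval -6.17 to -2.03, edgeR adjusted p = 0.972). Zim1 passed the filter here through iXEN cells alone, and Magel2 through XEN cells alone, which favours such differences. How many of all genes did not overlap was not computed, so these separations are a description. For most genes the intervals were wide. Grb10 had 23.1 ± 26.0 CPM in iXEN cells (SD, n = 4) and 17.8 ± 14.1 CPM in XEN cells (SD, n = 3) in ESC medium, a log2 fold change of 0.36 with a 95% interval of -1.92 to 2.63.

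XEN medium against ESC medium called none of 31 imprinted genes in XEN cells and none of 35 in iXEN cells, with 0% of all 13241 and 12920 genes called by edgeR. Unadjusted p-values were under 0.05 for 3 and 9 imprinted genes, beside 746 and 3018 of all genes. DESeq2 called 0 and 3 imprinted genes, beside 63 and 1536 of all genes. The 3 were Gab1, Impact and Airn in iXEN cells. Gab1 averaged 31.2 CPM in XEN medium and 102 CPM in ESC medium (log2 fold change -1.69, 95% interval -2.51 to -0.87, edgeR adjusted p = 0.0648), Impact averaged 80.8 CPM and 188 CPM (-1.20, -1.83 to -0.56, adjusted p = 0.0744), and Airn 4.14 CPM and 9.70 CPM (-1.20, -2.11 to -0.29, adjusted p = 0.134). For each of these 3 genes the 4 libraries in XEN medium lay below the 4 in ESC medium. In XEN cells Peg10 averaged 397 CPM in XEN medium and 90.8 CPM in ESC medium without overlap (2.10, 0.72 to 3.49, edgeR adjusted p = 0.80), and Blcap 16.5 CPM and 37.6 CPM, also without overlap (-1.22, -2.11 to -0.34, adjusted p = 0.80). The share of all genes without overlap between media was not computed, so the separations of these genes are a description. The interaction of cell type and medium, which asks whether the change with medium differed between iXEN and XEN cells, called 0% of 14357 genes and none of 37 imprinted genes with edgeR. It had 5 imprinted genes at an unadjusted p under 0.05, beside 2131 of all genes. DESeq2 called 1 imprinted gene, beside 466 of all genes. That gene was Gab1 (-2.37, 95% interval -3.87 to -0.88, edgeR adjusted p = 0.223). Kcnq1 passed the filter in the interaction alone and stood at -0.03 there (edgeR adjusted p = 0.996).

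Of 16 genes with known roles in keeping or erasing imprints, such as DNA methyltransferases, 6 of 15 tested rose and 1 fell in iXEN cells in ESC medium, 4 of 15 rose and 1 fell in iXEN cells in XEN medium, 1 of 14 rose and 1 fell in XEN cells in ESC medium, and 6 of 14 rose and 2 fell in XEN cells in XEN medium. Of all genes tested 20.8%, 17.7%, 11.4% and 23.0% rose and 25.9%, 14.9%, 13.7% and 24.5% fell, in the same order. Dnmt3b, a de novo methyltransferase, had 73.1, 40.6, 15.9 and 41.2 CPM in iXEN cells kept in ESC medium, and 91.2, 29.4, 49.2 and 28.1 CPM in XEN medium. XEN cells had 16.4, 38.5 and 30.8 CPM of Dnmt3b in ESC medium and 72.5, 88.7 and 86.4 CPM in XEN medium, against 3.60, 2.93 and 3.74 CPM in MEF, and it rose in all 4 comparisons, by 3.67, 3.90, 3.12 and 4.64. The related Dnmt3a fell in all 4, by 0.70, 1.98, 1.27 and 1.05 (edgeR adjusted p = 0.0426, 0.00511, 0.0428 and 0.0205). Genes of this list were not put through the alternative settings. Zfp57, which binds methylated imprint control regions, rose in XEN cells in XEN medium (0.78, SE 0.25, edgeR adjusted p = 0.0452) and was not called elsewhere. Igf2 and H19, left out of the group above, both fell in all 4 comparisons with MEF, with log2 fold changes of -12.24 to -9.68 for Igf2 and of -9.96 to -6.83 for H19. Of 20 further imprinted genes, that pair among them, 11 of 18 tested fell and 1 rose in iXEN cells in ESC medium, 7 of 17 fell and 0 rose in iXEN cells in XEN medium, and 8 and 10 of 17 fell and 0 rose in XEN cells in ESC and XEN medium, beside the same shares of all genes. These 20 include Dcn, which is also among the fibroblast markers, and Klf14, at no more than 0.0589 CPM outside MEF. How many of them passed the filter through MEF alone was not computed, so these counts are a description.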

How the data were processed

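RNA was extracted with Trizol and made into mRNA libraries with a TruSeq kit, per the labels' protocols. TopHat2 2.0.12, HTSeq 0.6.1, Trimmomatic 0.32 and FastQC 0.11.3 were used with the mm9 build, per the submitters' processing notes. Neither the annotation nor the strand setting is stated in these sources. The authors deposited whole-number read counts per gene, 1 file per library. The counter's own 5 summary lines held 20.8% to 33.1% of each file's reads and were left out of totals and tests.

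Each comparison was fitted on the libraries of the groups compared with edgeR 4.0.16 in R 4.3.3 (quasi-likelihood test, TMM scaling, filterByExpr with a minimum count of 10 and a total of 15, Benjamini-Hochberg adjustment over all genes tested, threshold 0.05). CPM used TMM factors over all 17 libraries, from 0.863 to 1.16. DESeq2 1.42.0, other scaling, no filter, 1 fit over all groups, a replicate block and leaving out libraries were the alternatives, and the scripts were tested on simulated data. Intervals of counts cover counting error alone.

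The genes, their lists and the tests were chosen with earlier results of these data known. Each gene was accounted for, with values in every library where it was called at least once. The labels do not say that libraries of a group came from separate animals or derivations, so p-values measure the spread between these libraries. Replicate numbers paired XEN cells across media (correlations of deviations from the group means 0.257, 0.388 and 0.657; library 1 in XEN medium correlated more with library 2 in ESC medium, at 0.451), where the blocked fit again called 0 imprinted genes. In iXEN cells library 9 did not pair (-0.056). Promoter windows came from RefSeq on GRCm38.p6, and 36 of the 42 genes had one.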

Additional observations from a re-analysis of the deposited data

Results flagged for a closer look

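Within the groups of 4 iXEN libraries, 14 of 71 gene levels had 1 library far from the other 3. The rule used flags about 1 in 20 such groups where values are independent and normally spread. CPM levels can be skewed, as with Rian at 0, 139, 0 and 1.13 CPM in XEN medium, and the genes share libraries. How often other genes are flagged was not computed, so the count is a description. In iXEN cells in ESC medium, library 2 was high for Cdkn1c (5.04 CPM) and Rasgrf1 (4.44 CPM), library 1 was high for Grb10 (61.8 CPM), and library 6 was low for Kcnq1ot1 (15 CPM) and high for Sgce (189 CPM).

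In iXEN cells in XEN medium, library 2 was high for 4 genes of the Dlk1-Meg3 cluster, with 3.2 CPM of Dlk1, 69.7 CPM of Meg3, 139 CPM of Rian and 4.35 CPM of Mirg. Its fibroblast marker sum was 2210 CPM, and the part of these markers was not tested. Library 9, with 109 CPM over the 4 pluripotent markers and 942 CPM over the fibroblast markers, was high for Slc22a18 (7.36 CPM). Of those pluripotent markers Pou5f1 and Sox2 were high there, and Nanog and Zfp42 were not. Library 1 was high for Peg3 (226 CPM), Usp29 (2.24 CPM), Ube3a (68.6 CPM) and Impact (122 CPM).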

How the results depend on the processing

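The number of imprinted genes called against MEF was 20 in iXEN cells and 5 in XEN cells in ESC medium, and 15 in iXEN cells and 23 in XEN cells in XEN medium. In 1 fit over all 5 groups it was 14, 8, 15 and 17 (4476, 3840, 5024 and 4761 of all genes) in that order. For XEN cells in ESC medium it became 12 with DESeq2, and leaving out 1 library gave 1 to 11 (5480 and 372 to 6056 of all genes). For iXEN cells in XEN medium it was 10 to 18 on leaving out 1 library (1842 to 5663 of all genes). There it was 21 without libraries 2 and 9 (7440 of all genes), a setting chosen after seeing the data. With the replicate block it was 0 there, as for all genes, and 21, 5 and 20 for iXEN cells in ESC medium and XEN cells in ESC and XEN medium; MEF share a number with the other cells but no labelled origin. DESeq2 called 2 imprinted genes between iXEN and XEN cells in ESC medium, 3 between media in iXEN cells and 1 for the interaction, against 0 with edgeR. Of all genes DESeq2 called 393, 1536 and 466 there. Leaving out 1 library gave 0 to 1 between media in iXEN cells, the 1 being Kcnq1ot1 without library 6 in ESC medium (-1.39, adjusted p = 0.034). The direction reversed, with a call, for Sgce in iXEN cells against MEF in ESC medium without iXEN library 6 (-0.62; up to 0.63 with another library left out) and for Dio3 in XEN cells against MEF in ESC medium without XEN library 1 (-9.07; up to 1.17 with another left out). Of 80 results against MEF that were not called, 25 changed sign in at least 1 setting without a call there, among them Mcts2 in XEN cells in XEN medium (0.74, and -0.58 with the replicate block), Tssc4 in iXEN cells in XEN medium (0.78, and -0.69 with the block) and Gab1 in XEN cells in ESC medium (0.32, and -0.34 without library 7). No called result against MEF changed sign. Leaving out XEN library 7 in both media, also chosen after seeing the data, again gave 0 imprinted genes between media in XEN cells and for the interaction. The causes were not tested. Depth limits genes with few counts, such as Kcnq1, Slc22a2 and Slc22a3.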
